A study of Mus musculus with 21 samples.

Results

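Regions of the mouse genome held by Foxa3 together with Foxa1 or Foxa2 are rare. They were chosen by the positions of peaks alone. Peaks of the 6 Foxa lists were pooled, and peaks that overlapped by 1 bp or more were merged into regions. A region was called shared when it held a peak of at least 1 Foxa3 list and a peak of at least 1 Foxa1 or Foxa2 list. This gave 392 shared regions among 29339 merged Foxa regions, or 1.34% (95% exact interval 1.21 to 1.47%). Of the rest, 12270 regions held Foxa3 alone and 16677 held Foxa1 or Foxa2 without Foxa3. The shared regions were 3.10% of the 12662 regions with a Foxa3 peak and 2.30% of the 17069 regions with a Foxa1 or Foxa2 peak.

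The lists came from chromatin immunoprecipitation with sequencing (ChIP-seq) in C57BL/6 cells. Embryonic fibroblasts (MEFs) prepared at 13.5 days post coitum had received retroviruses for Hnf4alpha, here Hnf4a, and for Foxa3, Foxa2 or Foxa1. Cells that received a given Foxa virus are called its line here, whatever their stage. Each line was sampled as induced hepatocyte-like (iHep) cells and 48 hours after the viruses were given, with an antibody to its own Foxa protein and with an antibody to Hnf4a, which gave 6 Foxa and 6 Hnf4a lists. All of these cells therefore carried the Hnf4a virus, and the labels give the source of every sample as fibroblasts, iHep cells included. A further sample carried the Foxa3 mutant del2 fused to an x3Ty1 tag, with Hnf4a, and was precipitated through the tag. It is a 48-hour sample by its title and by the series design, although its stage is labelled iHep.

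Each group had 1 library, so there was no replicate check, and no p-value is given. Foxa proteins differed in antibody as well as in line, so protein, antibody and line cannot be told apart, and in such bulk samples binding in fewer cells and weaker binding per cell cannot be told apart either. Sample titles carry codes of unstated meaning. The 48h Foxa2 and 48h Foxa3 libraries share the code R209, whereas the 48h Foxa1 library has R222, and the iHep libraries have R170 for Foxa3, R215 for Foxa2 and R225 for Foxa1. Each Hnf4a library has the code of the Foxa library of its line and stage, except Hnf4a of the iHep Foxa2 line, which has R242. Carry-over between libraries of the same code was not tested. The titles also number the iHep Foxa3 cells 3 and all other Foxa cells with a number 1, so the Foxa3 samples of the 2 stages may not be the same culture. Shares are given with 95% exact binomial intervals, which hold counting error alone and treat close peaks as independent. The files hold no read counts, so the depth is unknown. Positions are on the mm9 build. Chains of 5 or more close peaks in every 48h Hnf4a list marked 3 dense blocks, which contain 8 of the shared regions, and values that rest on them are given with and without the blocks.

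Foxa proteins are forkhead transcription factors that bind DNA through a winged-helix domain and are known for reaching sites in closed chromatin. They act in the formation and function of the liver, where they often bind near Hnf4a, a nuclear receptor that drives hepatocyte genes. Given together, Hnf4a and a Foxa protein are known to convert mouse fibroblasts into hepatocyte-like cells.

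The shared regions were spread over many combinations of lists. Of 45 combinations that the definition allows, 34 were seen, and 14 of them held 10 or more regions each, 333 regions in all. A further 8 combinations had 1 region each. The most common combination was iHep Foxa3 with iHep Foxa2 alone, in 60 regions. Next came both Foxa3 lists with 48h Foxa2 in 39 regions, both Foxa3 lists with both Foxa2 lists in 31, both Foxa3 lists with iHep Foxa2 in 28, and 48h Foxa3 with all 4 Foxa1 and Foxa2 lists in 28. By number of lists, 107 regions were in 2 lists, 134 in 3, 81 in 4, 58 in 5 and 12 in all 6. Overlap between a Foxa3 peak and a Foxa1 or Foxa2 peak of the same stage was present in 345 regions (88.0%), and 47 regions overlapped only across stages.

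**Figure D1:**
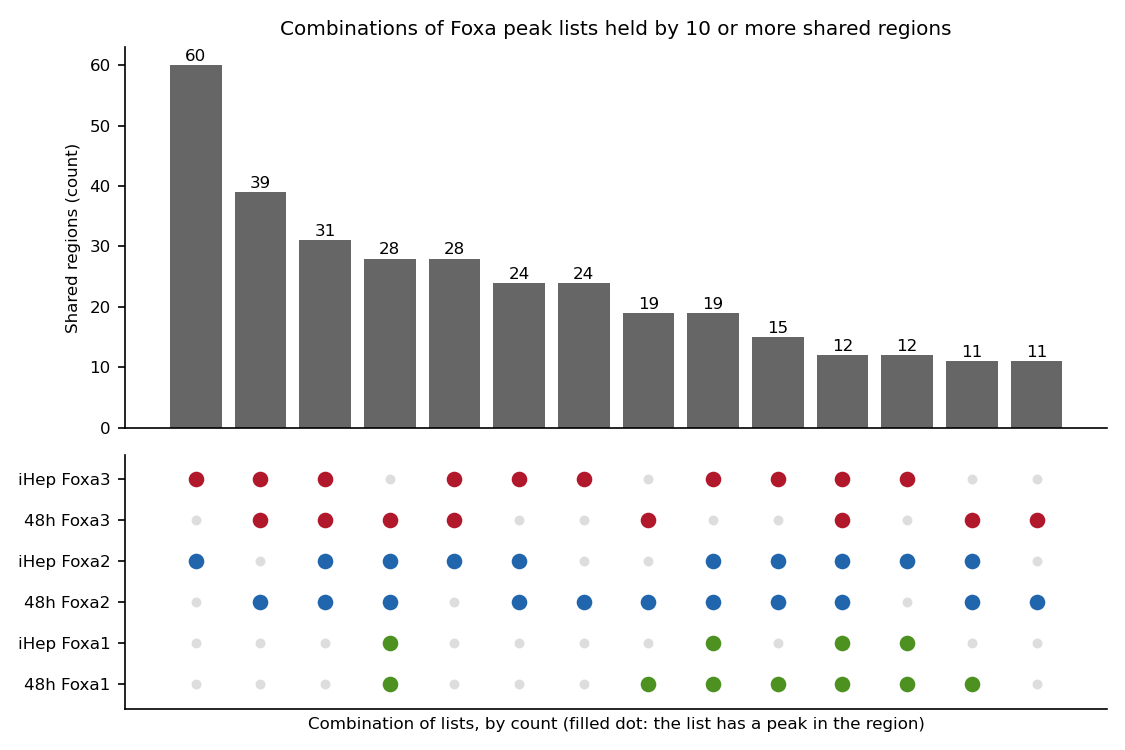
Bars give the number of shared regions for each of the 14 combinations of Foxa lists held by 10 or more regions, and filled dots below show which lists have a peak. Foxa2 is in all 14 combinations, and the combination of iHep Foxa3 with iHep Foxa2 leads with 60 regions.

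The partner of Foxa3 was mostly Foxa2. Of the 392 regions, 227 held Foxa2 without Foxa1, 157 held both, and 8 held Foxa1 without Foxa2. The Foxa2 lists are longer than the Foxa1 lists in iHep cells (10330 against 3435 peaks) but of near equal length at 48h (6827 against 6781 peaks). Among all regions with a Foxa1 or Foxa2 peak, 1.79% held an iHep Foxa3 peak and 1.27% a 48h Foxa3 peak. An iHep Foxa3 peak lay in 2.31% of the 7403 regions with iHep Foxa2 but no iHep Foxa1, against 0.595% of the 504 with iHep Foxa1 but no iHep Foxa2. The same list lay in 3.19% of the 3731 regions with 48h Foxa2 but no 48h Foxa1 (interval 2.65 to 3.80%), against 0.708% of the 3672 with the reverse (0.463 to 1.04%).

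For the 48h Foxa3 list the shares were 2.31% (1.85 to 2.84%) at 48h Foxa2 without 48h Foxa1, against 0.245% (0.112 to 0.465%) at 48h Foxa1 without 48h Foxa2. Regions with iHep Foxa2 but no iHep Foxa1 held a 48h Foxa3 peak in 1.19%, against 0.397% of those with the reverse, where the counts were 88 and 2 regions, and 1 of those 2 lay in a dense block. In this last case the difference turned to -0.542 percentage points when the upper 50% of each list by score was used. Each such difference kept its sign but shrank when every list was cut to as many peaks as the smallest holds. For iHep Foxa3 it went from 1.71 to 0.412 percentage points at iHep partners and from 2.48 to 0.997 at 48h partners. For 48h Foxa3 it went from 0.792 to 0.273 at iHep partners and from 2.06 to 0.839 at 48h partners. The cut removes Foxa3 peaks too, so the part of partner list length cannot be read from it. These shares and differences describe the rule's own lists and were not tested.

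Foxa3 was found at both stages in 131 shared regions, in iHep cells only in 175 and at 48h only in 86. The regions with 48h Foxa3 only leaned to sites with many partners: 28 of the 59 regions with all 4 Foxa1 and Foxa2 lists held 48h Foxa3 alone, against 19 of the 177 regions with 1 such list. Regions with Foxa3 at both stages showed the opposite, with 12 of 59 regions at 4 partner lists and 70 of 177 at 1 list.

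This lean went with how highly the partner peak was ranked. Peaks were ranked within each list by the authors' score, with rank 1 the highest. Outside the dense blocks, 36 of the 101 48h Foxa2 peaks ranked up to 100 (ties included) overlapped a 48h Foxa3 peak, which is 35.6% (26.4 to 45.8%), against 2.36% over the whole 48h Foxa2 list. By finer steps the share was 72.0% (18 of 25) for ranks 1 to 25, 36.0% (9 of 25) for ranks 26 to 50, 17.6% (9 of 51) for ranks 51 to 100 and 6.00% (6 of 100) for the next ranks up to 200. Below rank 1000 it was 1.60% (1.29 to 1.95%). The share was thus highest at the very top of the list and dropped within its first 200 ranks. Of the 48h Foxa1 peaks, 23.0% (23 of 100) ranked up to 100 and 0.451% ranked below 1000 held a 48h Foxa3 peak, beside 1.34% over that list.

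With the iHep Foxa3 list the top peaks stayed close to the list as a whole. It overlapped 2 of the 101 top 48h Foxa2 peaks (1.98%, interval 0.241 to 6.97%), beside 2.45% over the whole list, and 3 of 100 top 48h Foxa1 peaks, beside 1.14%. It overlapped 4 of 100 top iHep Foxa2 peaks, beside 2.19%, and 3 of 100 top iHep Foxa1 peaks, beside 1.72%. For 48h Foxa3 the iHep partner lists lay in between, with 9 of 100 top iHep Foxa2 peaks, beside 1.22% over the list, and 11 of 100 top iHep Foxa1 peaks, beside 1.37%.

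**Figure D2:**
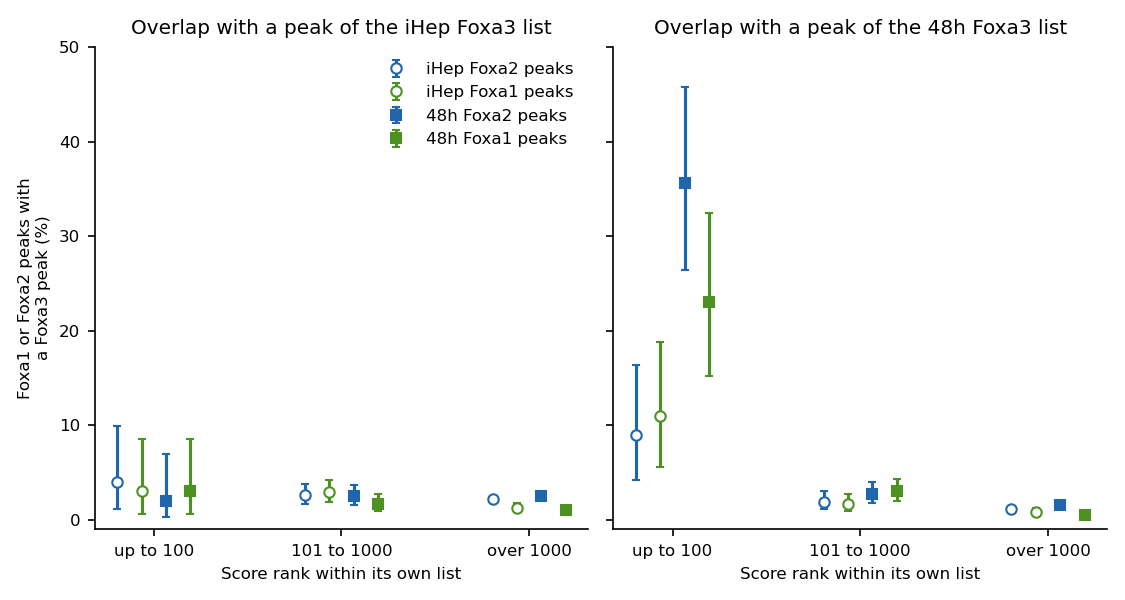
Each point is the percentage of Foxa1 or Foxa2 peaks that overlap a peak of the iHep Foxa3 list (left) or the 48h Foxa3 list (right), by the peak's score rank in its own list, outside the dense blocks, with 95% exact intervals. Top 48h Foxa2 peaks (35.6%) and top 48h Foxa1 peaks (23.0%) in the right panel stand above all other points.

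Among the top 48h peaks, overlap with 48h Foxa3 was most common where both partners ranked high. Top peaks common to the first 100 of both lists held 48h Foxa3 in 22 of 39 cases (56.4%, 39.6 to 72.2%). Top 48h Foxa2 peaks that lay in the 48h Foxa1 list below its first 100 held it in 13 of 59 (22.0%, 12.3 to 34.7%). Top 48h Foxa1 peaks that lay in the 48h Foxa2 list below its first 100 held it in 1 of 57 (1.75%, 0.0444 to 9.39%). The 48h Foxa2 and 48h Foxa3 libraries are the Foxa libraries that share the code R209. Carry-over between these libraries was not tested, so the 48h Foxa3 peaks at these sites are given as listed, with no statement that Foxa3 bound there.

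The 36 Foxa3 peaks at these top 48h Foxa2 sites were of middling rank in their own list, with a median of 50% of the way down and a range of 6.56 to 99.2%. Peak centres here are the middles of the listed peaks, since the files give no summit. Those of the 36 Foxa3 peaks lay a median of 47 bp from the Foxa2 centres, at most 179 bp, and 33 were within 100 bp. The Foxa3 peaks were narrower than the Foxa2 peaks, with a median of 388 bp against 730.5 bp. None of the 36 sites overlapped an iHep Foxa3 peak. An iHep Hnf4a peak was present at 0 of them in the Foxa3 line, at 3 in the Foxa2 line and at 2 in the Foxa1 line, where all Foxa regions gave 3.8%, 2.76% and 2.02%. None held a 48h Hnf4a peak, from which nothing can be read, since 0.494% of all Foxa regions held one.

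From the side of the Foxa3 lists the pattern was weaker. Of the 25 highest 48h Foxa3 peaks outside the blocks, 7 overlapped 48h Foxa2 (28.0%, 12.1 to 49.4%), against 1 each for iHep Foxa2, iHep Foxa1 and 48h Foxa1. Of the 25 highest iHep Foxa3 peaks, 2 overlapped 48h Foxa2 and 1 each of the other partner lists. Below rank 1000, 2.52% of 48h Foxa3 peaks overlapped 48h Foxa2, and 1.27% of iHep Foxa3 peaks did.

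The region on chromosome 10 at 86307872 to 86308791 is the clearest case. It held the top-ranked peak of 48h Foxa2 and of both Foxa1 lists, and rank 2 of the iHep Foxa2 list. Its 48h Foxa3 peak was rank 373 of 5690 and ran from 86308001 to 86308621, inside the 48h Foxa2 peak at 86307891 to 86308738, with centres 3.5 bp apart from the nearest partner. There was no iHep Foxa3 peak. Hnf4a peaks lay there in iHep cells of the Foxa2 line (rank 155 of 2485) and the Foxa1 line (rank 51 of 1580).

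A second such region was on chromosome 5 at 91160193 to 91161163. Its peaks were rank 10 in 48h Foxa2, 12 in 48h Foxa1, 20 in iHep Foxa2 and 16 in iHep Foxa1, beside rank 478 in 48h Foxa3. The region on chromosome 14 at 30311485 to 30312426 held rank 6 of 48h Foxa2, rank 23 of 48h Foxa1 and rank 417 of 48h Foxa3, but only rank 5316 of 10330 in iHep Foxa2. Neither held a Hnf4a peak or an iHep Foxa3 peak. The other members among the 5 strongest at 48h lay in the dense block on chromosome 9.

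The strongest iHep pairs, ordered by the lower-ranked peak of each pair, were less extreme. The first was on chromosome 14 at 17075906 to 17076744, where iHep Foxa3 had rank 1486 of 12661, iHep Foxa2 rank 1177 and iHep Foxa1 rank 405 of 3435. The second, on chromosome 11 at 58976455 to 58977635, was in all 6 Foxa lists, with ranks of 1886 in iHep Foxa3, 3420 in iHep Foxa2 and 424 in iHep Foxa1. The remaining 3 held both Foxa3 and both Foxa2 lists but no Foxa1. They were on chromosome 5 (93635073 to 93635855), on chromosome 8 (26707305 to 26708318) and on chromosome 13 (99584769 to 99585825). None of these 5 held a Hnf4a peak in any list. In the region on chromosome 8 the Foxa3 ranks were 616 in iHep cells and 425 at 48h.

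Whether a 48h Foxa3 peak was found again in the iHep Foxa3 list differed with the number of Foxa1 and Foxa2 lists it overlapped. Over the whole list 74.2% of 48h Foxa3 peaks overlapped an iHep Foxa3 peak. Outside the dense blocks the share was 75.1% (4108 of 5467) with 0 partner lists, 72.9% (62 of 85) with 1, 67.3% (35 of 52) with 2, 45.8% (11 of 24) with 3 and 19.4% (7 of 36, interval 8.19 to 36.0%) with 4. With the blocks the share at 2 lists was 45.5% (35 of 77). Median rank was 48.1% of the way down the list at 4 partner lists and 50.2% at 0, and median width 439 bp and 537 bp. In the upper 50% of the 48h Foxa3 list by score the shares were 26.3% (5 of 19) at 4 lists and 86.2% at 0, and in the rest 11.8% (2 of 17) at 4 lists and 64.1% at 0. The peaks at 4 lists include 20 of those at the top 48h Foxa2 sites. Without the regions of those sites 7 of 16 peaks at 4 lists, or 43.8% (19.8 to 70.1%), were found again.

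In the other direction no such decline was seen over the list as a whole. Over the whole iHep Foxa3 list 43.8% of peaks overlapped a 48h Foxa3 peak, and the shares from 0 to 4 partner lists were 44.0%, 36.7%, 45.2%, 32.5% and 37.9%, with intervals that overlap. In the upper 50% of the list by score the share was 83.3% (10 of 12, 51.6 to 97.9%) at 4 lists and 60.4% (59.2 to 61.6%) at 0. In the rest it was 5.88% (1 of 17, 0.149 to 28.7%) at 4 lists and 27.5% (26.4 to 28.6%) at 0. The intervals overlapped in both parts, so no direction is read from these few peaks. By the stage of the partner, 56.6% of the 76 iHep Foxa3 peaks with a partner only at 48h were also in the 48h Foxa3 list (44.7 to 67.9%), against 23.6% of the 123 with a partner only in iHep cells (16.4 to 32.1%). Those with a 48h partner only ranked higher, at a median of 35.8% of the way down the list against 54.7%.

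**Figure D3:**
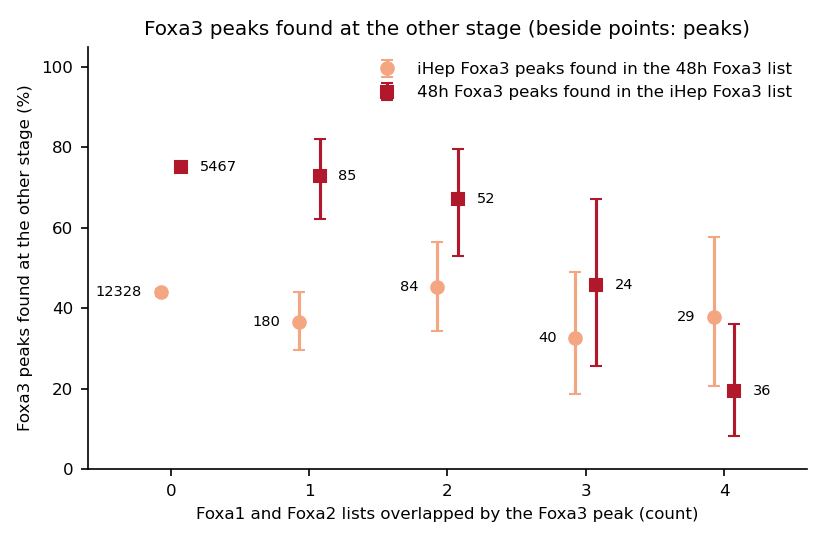
Points give the percentage of Foxa3 peaks of a stage that overlap a Foxa3 peak of the other stage, by the number of Foxa1 and Foxa2 lists the peak overlaps, outside the dense blocks, with 95% exact intervals and the number of peaks beside each point. For 48h Foxa3 the share was 19.4% at 4 lists and 75.1% at 0 lists, while the iHep Foxa3 shares lay between 32.5% and 45.2%.

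Within shared regions the middles of the Foxa3 peak and of its partner, used as centres, were offset. Over all 392 regions the nearest Foxa3 and partner centres were a median of 130.75 bp apart (quartiles 51.5 and 244.25 bp, largest 1298.5 bp). They were within 50 bp in 96 regions (24.5%) and within 200 bp in 265 (67.6%). In 316 regions (80.6%) the overlap covered 50% or more of the shorter peak. In 192 regions (49.0%) a peak lay wholly inside the other, with Foxa3 inside its partner in 125 and the partner inside Foxa3 in 67. The intersection was under 50 bp in 26 regions.

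At the edge of the definition, 4 regions were joined by an overlap of up to 3 bp. The smallest were 2 bp, on chromosome 5 at 116082451 to 116083154, where an iHep Foxa3 peak ended as an iHep Foxa2 peak began, and on chromosome 11 at 84326342 to 84327369, where a 48h Foxa3 peak met an iHep Foxa2 peak. Just outside it, 26 regions of Foxa3 alone lay within 50 bp of a region of Foxa1 or Foxa2 alone, 1 of them with a gap of 0 bp, and 78 lay within 200 bp.

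The offset was larger for iHep Foxa3 than for 48h Foxa3. Of directly overlapping pairs, iHep Foxa3 centres were a median of 191.25 bp from iHep Foxa2 centres (n = 224 regions), 161 bp from iHep Foxa1 (59), 184.5 bp from 48h Foxa2 (167) and 219 bp from 48h Foxa1 (77). The 48h Foxa3 centres were 170 bp from iHep Foxa2 (124), 99 bp from iHep Foxa1 (47), 131.5 bp from 48h Foxa2 (160) and 84.25 bp from 48h Foxa1 (84). Because iHep Foxa3 peaks are narrow, with a median of 248 bp over the list, the offset was also set against the distance at which the pair would only touch, on a scale where 0 is a common centre and 1 is touching. The median was 0.45 to 0.52 for iHep Foxa3 and 0.14 to 0.29 for 48h Foxa3. The partner's centre fell inside the iHep Foxa3 peak in 42.9 to 53.9% of pairs and inside the 48h Foxa3 peak in 81.5 to 87.2%.

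Foxa1 and Foxa2 lay much closer to each other in the same regions. Their centres were a median of 21.75 bp apart in iHep cells (n = 94) and 29 bp at 48h (n = 115), with 28.5 and 37.5 bp in regions that were not shared. Between stages, Foxa3 centres were 151.5 bp apart in shared regions (n = 130) and 113 bp in regions of Foxa3 alone, against 42 bp for Foxa2 and 25.5 bp for Foxa1 in shared regions. On the scale where 1 is touching, these Foxa3 medians were 0.20 in shared regions and 0.23 in regions of Foxa3 alone. Those of Foxa2 and Foxa1 in shared regions were 0.084 and 0.045. For 48h Foxa3 the nearest partner was a median of 181.5 bp away in regions with 1 partner list, 139 bp with 2, 98.25 bp with 3 and 39 bp with 4. More partners also give more chances of a near one. For iHep Foxa3 these medians were 183, 160, 170.5 and 132 bp.

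**Figure D4:**
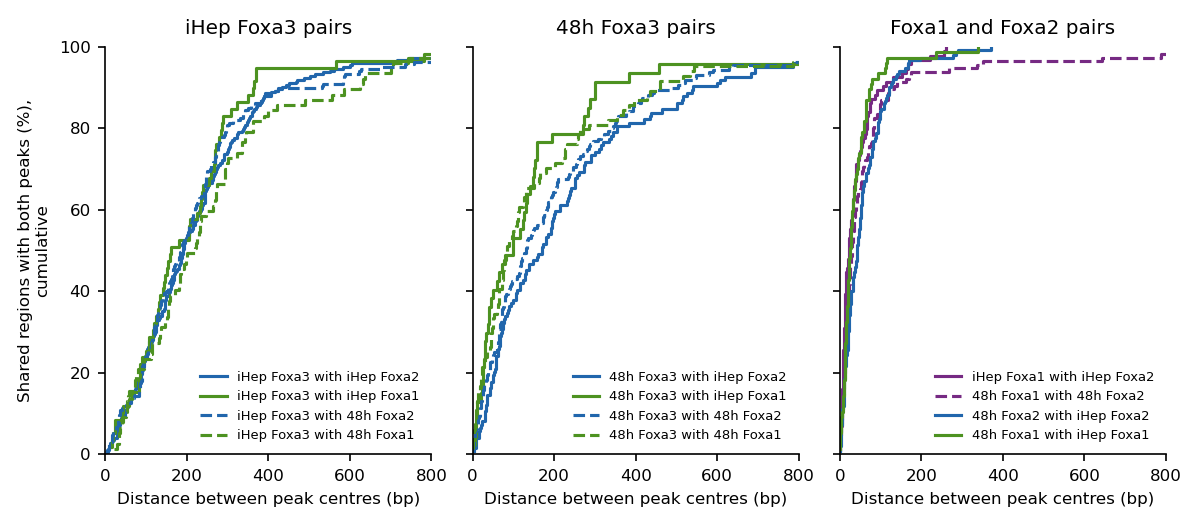
Curves give the cumulative percentage of shared regions by the distance between the centres of overlapping peaks, for pairs with iHep Foxa3 (left), pairs with 48h Foxa3 (middle) and pairs among Foxa1 and Foxa2 (right), with the axis ending at 800 bp. The iHep Foxa3 pairs rise slowest, with medians from 161 to 219 bp, and the pairs among Foxa1 and Foxa2 fastest, with medians from 21.75 to 42 bp.

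By median rank within their lists, 48h Foxa3 peaks stood lower than both 48h partners, and iHep Foxa3 peaks stood lower than iHep Foxa1 but close to iHep Foxa2. Expressed as the percentage of the list ranked as high or higher, peaks in shared regions had a median of 44.8% in iHep Foxa3 (400 peaks) and 46.3% in 48h Foxa3 (255 peaks). Medians were 45.9% in iHep Foxa2 (289 peaks), 37.7% in 48h Foxa2 (252), 27.6% in iHep Foxa1 (99) and 19.5% in 48h Foxa1 (151). Peaks of the top 10% of a list made up 17.3% of the iHep Foxa3 peaks in shared regions, 16.5% of 48h Foxa3, 18.0% of iHep Foxa2, 28.2% of 48h Foxa2, 25.3% of iHep Foxa1 and 37.7% of 48h Foxa1. In the 175 regions with 48h Foxa3 and a 48h partner the median was 44.2% for Foxa3 and 29.6% for the best partner, and in the 236 such iHep regions 47.4% and 50.02%.

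In regions with all 4 partner lists the partners ranked far higher. There the median rank of the Foxa3 peaks was 62.1% in iHep cells (31 regions) and 48.1% at 48h (40 regions), whereas partner peaks were at 6.16% in iHep Foxa2, 5.52% in 48h Foxa2, 15.02% in iHep Foxa1 and 4.84% in 48h Foxa1. The 28 of these regions with 48h Foxa3 alone had the highest 48h partner ranks, at 0.469% for 48h Foxa2 and 1.40% for 48h Foxa1. The 19 with iHep Foxa3 alone had 18.7% and 16.4%, the 12 with Foxa3 at both stages 36.1% and 32.1%, and the 881 regions with all 4 lists and no Foxa3 27.6% and 13.9%.

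Across shared regions the partner ranks went together and the Foxa3 ranks did not go with them. Spearman's rho between 48h Foxa2 and 48h Foxa1 ranks was 0.82 over 115 regions, and between iHep Foxa2 and iHep Foxa1 0.64 over 94. Between the 2 Foxa3 lists it was 0.47 over 131 regions. For Foxa3 against a Foxa1 or Foxa2 list it lay between -0.18 and 0.17, over 55 to 233 regions. These coefficients are descriptions over regions of the same libraries. In the 236 regions with iHep Foxa3 and an iHep partner, both peaks were in the top 10% of their lists in 2, and in the 175 such regions at 48h in 7.

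Shared regions, each built from several peaks, were wide. Their median width was 761 bp, against 369 bp for regions of Foxa3 alone and 458 bp for regions of Foxa1 or Foxa2 alone. Regions with Foxa3 at both stages had a median of 1225 bp, those with 48h Foxa3 only 781.5 bp and those with iHep Foxa3 only 595 bp. Some 35 shared regions exceeded 2000 bp, and 74 held 2 or more iHep Foxa3 peaks. The widest, 15228 bp on chromosome 9 at 3023184 to 3038411, lay in a dense block and held 8 48h Foxa3 peaks, 3 48h Foxa1 peaks and a 48h Foxa2 peak across its whole length. It also had the largest overlap of a Foxa3 with a partner peak, 4405 bp. Of the 12 Foxa regions in the dense blocks 8 were shared, and all 8 held Foxa3 at 48h only.

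The 12 regions in all 6 Foxa lists were a mixed group. Their widths ran from 730 to 8490 bp, and 6 of them held an iHep Hnf4a peak. On chromosome 15 at 59479817 to 59480546 all 6 lists met within 730 bp, and the nearest Foxa3 and partner centres were 2.5 bp apart. On chromosome 12 at 55796943 to 55799293 the 48h Foxa3 peak was rank 13 of its list, while the partner peaks were rank 2720 in iHep Foxa2, 4938 in 48h Foxa2, 1797 in iHep Foxa1 and 3993 in 48h Foxa1. The region on chromosome 3 at 116754710 to 116755810 showed the reverse, with rank 51 in iHep Foxa2 and 128 in iHep Foxa1 beside 7863 in iHep Foxa3 and 4637 of 5690 in 48h Foxa3. On chromosome 11 at 86392773 to 86401262 a 48h Foxa3 peak of 7738 bp met the 48h Foxa2 peak only at its very end, and a separate iHep Foxa3 peak of 550 bp overlapped all 4 partner peaks.

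The Hnf4a lists played no part in choosing the regions. In iHep cells a Hnf4a peak of any line overlapped 22.7% of shared regions (89 of 392, interval 18.6 to 27.2%), against 7.84% of regions of Foxa3 alone (7.37 to 8.33%), 4.46% of regions of Foxa1 or Foxa2 alone (4.15 to 4.79%) and 6.12% of all Foxa regions. Without the dense blocks the shared value was 21.1% (81 of 384, 17.1 to 25.5%). The shared share was above both other classes by more than the counting intervals. There is no replicate library against which to test it.

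By line and without the blocks, 16.9% of shared regions (65) held Foxa3-line Hnf4a, 7.81% (30) held Foxa2-line and 7.03% (27) held Foxa1-line Hnf4a, beside the 3.8%, 2.76% and 2.02% of all Foxa regions, blocks included. Regions of Foxa3 alone held Foxa3-line Hnf4a in 6.73% but Foxa2-line and Foxa1-line Hnf4a in 1.73% and 1.20%. For regions of Foxa1 or Foxa2 alone the value was 1.32% with Foxa3-line, 3.33% with Foxa2-line and 2.48% with Foxa1-line Hnf4a. In each of the 3 lines the interval of the shared regions lay above those of both other classes when any overlap counted. With centres within 200 bp of each other it was 6.77% (4.47 to 9.76%) with Foxa3-line Hnf4a, against 4.52% for Foxa3 alone (4.15 to 4.90%), and 5.21% (3.21 to 7.93%) with Foxa2-line Hnf4a, against 3.01% for Foxa1 or Foxa2 alone (2.76 to 3.28%), and in both cases the intervals overlapped. Foxa1-line Hnf4a gave 5.21%, against 0.644% for Foxa3 alone and 2.19% for Foxa1 or Foxa2 alone (1.97 to 2.42%), with no overlap. Of the 81 shared regions with iHep Hnf4a outside the blocks, 42 had it in the Foxa3 line alone, 16 in the Foxa2 or Foxa1 line but not the Foxa3 line, and 23 in both kinds, 12 of these in all 3 lines.

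Width and the number of lists moved with this share. Outside the blocks, in regions over 500 and up to 800 bp wide the share with iHep Hnf4a was 13.1% of shared regions (8.39 to 19.2%), against 9.16% for Foxa3 alone, whose interval overlapped it, and 6.23% for Foxa1 or Foxa2 alone. From there to 1200 bp it was 26.4% (17.6 to 37.0%), against 12.8% and 10.7%. From there to 2000 bp it was 28.0% (16.2 to 42.5%), against 20.6% and 15.6%, and the intervals overlapped. Over 2000 bp, a width that no region of Foxa1 or Foxa2 alone reached, it was 53.3% (16 of 30, 34.3 to 71.7%). Foxa3 alone gave 46.6% there (39.1 to 54.2%), and the intervals overlapped. In regions of 301 to 500 bp it was 12.2% (4.63 to 24.8%), against 6.00% and 3.15%, and only the interval of Foxa3 alone overlapped it. Shared regions in 2 lists had it in 11.2% (12 of 107, 5.93 to 18.8%), which is at the level of regions of Foxa3 alone in both Foxa3 lists (11.5%) and above regions of Foxa1 or Foxa2 alone in 2 lists (4.89%). In 3 lists it was 19.7% of shared regions (13.2 to 27.7%), against 9.74% of regions of Foxa1 or Foxa2 alone (8.39 to 11.2%). In 4 lists it was 27.5% (18.1 to 38.6%), against 10.1% (8.19 to 12.3%). Shared regions in 5 lists had it in 27.6%, and those in 6 lists in 6 of 12. With a fixed window, Hnf4a and region centres within 200 bp of each other, it was 11.7% of shared regions (8.68 to 15.4%). Regions of Foxa3 alone gave 5.26% and regions of Foxa1 or Foxa2 alone 3.93%.

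**Figure D5:**
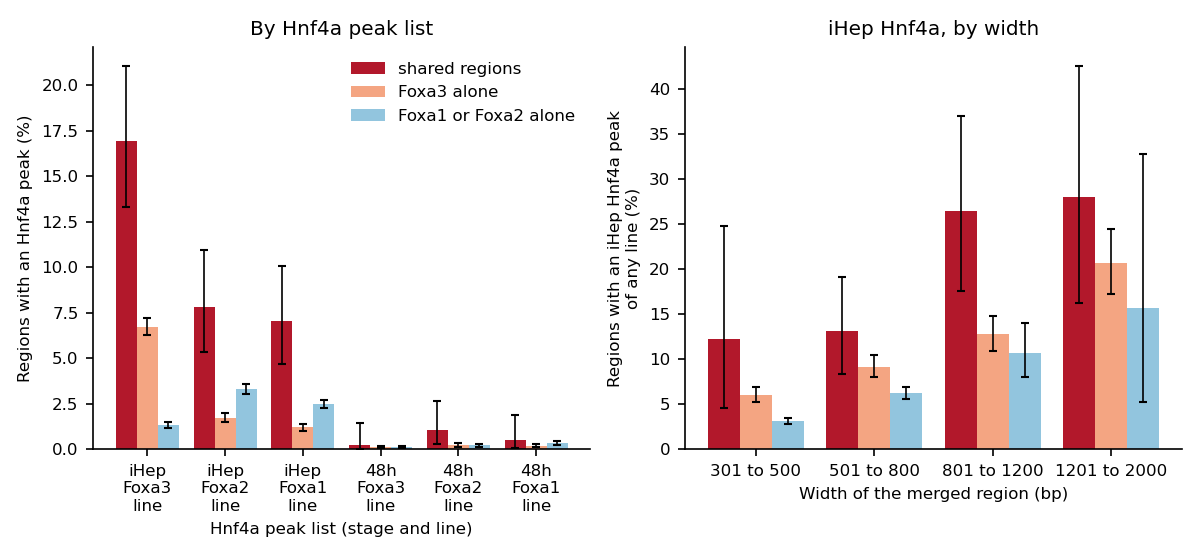
Bars give the percentage of regions that overlap a Hnf4a peak, with 95% exact intervals, for shared regions, regions of Foxa3 alone and regions of Foxa1 or Foxa2 alone outside the dense blocks, by Hnf4a list (left) and for iHep Hnf4a of any line by region width (right). With Hnf4a of the iHep Foxa3 line it was 16.9% of shared regions, against 6.73% and 1.32%, and with any line at widths over 500 and up to 800 bp 13.1%, against 9.16% and 6.23%.

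The comparison was repeated with the Foxa peaks themselves, which sets the merged width aside but not the width of the peaks. Median peak width in shared regions was 329 bp against 246 bp for other iHep Foxa3 peaks, 471 bp against 461 bp for iHep Foxa2 and 470 bp against 410 bp for iHep Foxa1, and its part in the shares was not tested. Of iHep Foxa3 peaks in shared regions 15.8% overlapped Foxa3-line Hnf4a (63 of 400, 12.3 to 19.7%), against 6.64% of other iHep Foxa3 peaks (6.20 to 7.09%) and 6.93% of the whole list. The gap held in the upper 25% of the list by score, at 27.3% against 11.0%, and in the rest, at 10.1% against 5.19%. In their own line, iHep Foxa2 peaks gave 7.61% in shared regions (4.83 to 11.3%), against 4.87% of others, with 4.95% over the list, and iHep Foxa1 peaks 12.1% (6.42 to 20.2%), against 7.01%, with 7.16% over the list. For these 2 proteins the intervals overlapped. The same iHep Foxa2 peaks differed more with Hnf4a of the Foxa3 line, which overlapped 10.4% of those in shared regions (7.11 to 14.5%), against 1.88% of others (1.63 to 2.17%). Foxa3-line Hnf4a likewise overlapped 15.2% of iHep Foxa1 peaks in shared regions (8.74 to 23.8%), against 2.73% of others. Foxa2-line Hnf4a overlapped 6.00% of iHep Foxa3 peaks in shared regions (3.88 to 8.80%), against 1.61% of others.

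Within shared regions outside the dense blocks, Foxa3-line Hnf4a lay mostly nearer to Foxa3, and the Hnf4a of the other lines mostly nearer to a partner centre. The partner centre is the nearest Foxa1 or Foxa2 centre of any list, and a side with more peaks in a region has more chances of a near centre. The iHep Hnf4a libraries of the Foxa3 and Foxa1 lines share a title code with the iHep Foxa library of their own line. Carry-over between such libraries was not tested. Foxa3-line Hnf4a centres were nearer to a Foxa3 centre than to a partner centre in 48 of 65 regions (73.8%, 61.5 to 84.0%), with medians of 92 bp to Foxa3 and 265 bp to the partner. Foxa2-line Hnf4a centres were nearer to Foxa3 in 7 of 30 regions (23.3%, 9.93 to 42.3%), with medians of 192.75 bp to Foxa3 and 73.5 bp to the partner. Foxa1-line Hnf4a gave 6 of 27 (22.2%, 8.62 to 42.3%), with 197.5 and 78 bp. With iHep Foxa3 and iHep Foxa2 peaks alone the counts were 38 of 53 for the Foxa3 line, 3 of 22 for the Foxa2 line and 3 of 20 for the Foxa1 line.

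The stage of Foxa3 went with Hnf4a. Outside the blocks, iHep Hnf4a of any line overlapped 28.2% of shared regions with Foxa3 at both stages (37 of 131), 22.3% of those with iHep Foxa3 only (39 of 175) and 6.41% of those with 48h Foxa3 only (5 of 78, interval 2.11 to 14.3%). Over all Foxa regions, blocks included, the share was 6.12%. Regions of Foxa3 alone gave 11.5% in both Foxa3 lists and 6.06% in 1. For Foxa3-line Hnf4a the shares of shared regions, in the same order, were 26.7%, 16.6% and 1.28%, beside 3.8% of all Foxa regions. The regions with 48h Foxa3 only include sites of top 48h Foxa2 peaks, where carry-over was not tested. By partner, 28.2% of regions with both Foxa1 and Foxa2 held iHep Hnf4a (42 of 149), against 16.7% of those with Foxa2 alone (38 of 227) and 1 of 8 with Foxa1 alone.

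At 48h, Hnf4a was rare at shared regions. The dense blocks are themselves defined by chains of 48h Hnf4a peaks, so regions in them are likely to hold such a peak, although the flanks added need not. The values without blocks thus leave out regions by the quantity counted. A 48h Hnf4a peak of any line overlapped 13 of 392 regions (3.32%, interval 1.78 to 5.60%), beside the 0.494% of all Foxa regions. Without the blocks it was 5 of 384 (1.30%, 0.424 to 3.01%), against 0.375% for Foxa3 alone (0.275 to 0.4997%) and 0.498% for Foxa1 or Foxa2 alone (0.397 to 0.617%), and the intervals overlapped. By list, outside the blocks the Foxa3 line had 1 such region, the Foxa2 line 4 and the Foxa1 line 2. All Foxa regions, blocks included, gave 0.16%, 0.266% and 0.31% for these lists.

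Of the shared regions, 54 had a Hnf4a peak in 1 list, 17 in 2, 9 in 3, 8 in 4, 2 in 5 and 1 in all 6. Outside the blocks, 2 had it in 4 lists, 0 in 5 and 1 in all 6, with no change below that. Over all Foxa regions, 6.12% held an iHep Hnf4a peak of any line and 0.494% a 48h one. The number of Hnf4a lists per region was not counted for the other classes, so these counts describe the shared regions only. The region with all 6, on chromosome 18 at 90771513 to 90772073, held an iHep Foxa3 peak at rank 1379 and a weak 48h Foxa2 peak at rank 6705 of 6827, with centres 10 bp apart. Its iHep Hnf4a peaks were rank 9 of 2506 in the Foxa3 line, rank 8 of 2485 in the Foxa2 line and rank 575 of 1580 in the Foxa1 line. The 48h Hnf4a ranks were 224 of 370 in the Foxa3 line, 311 of 453 in the Foxa2 line and 8 of 418 in the Foxa1 line.

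The del2 list held a lone peak, of 87 bp on chromosome 17 at 35848708 to 35848794, and it fell inside a shared region, at 35848417 to 35849128. That region held rank 7 of the iHep Foxa1 list, rank 24 of iHep Foxa2, rank 55 of 48h Foxa1 and rank 3227 of iHep Foxa3, and no peak of 48h Foxa3, 48h Foxa2 or Hnf4a. With a list of 1 peak nothing can be compared.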

How the data were processed

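ChIP-seq peak lists of 13 samples were used, and the files of the 8 inputs were not analysed here. The authors deposited, for each sample, peak positions on mm9 with a score per peak, and no source used here says how the score was made. Per the submitters' processing notes BWA 0.6.2, MACS2 2.1.0 and bedtools 2.16.2 were used, with no role stated, and use of an input in calling is not given. Scores served only to rank peaks within a list. Samples were grouped by title, 1 library per group, so shares carry 95% exact (Clopper-Pearson) intervals and no test was run.

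Overlap meant at least 1 bp. Dense blocks were stretches where each 48h Hnf4a list had 5 or more peaks at most 2 kb from the next, with 10 kb added on each side. The members and lists were chosen with earlier results of these data known. Regions were named by a rule: the 5 strongest per stage with centres within 200 bp, those in all 6 Foxa or Hnf4a lists, the extreme overlaps, the del2 region and the widest. No gene was assigned and no sequence printed, since no mm9 annotation or genome was used here. The merging code was checked on simulated peaks. SciPy 1.17.1, pandas 2.3.3 and NumPy 2.4.6 ran under Python 3.11.15, and figures were drawn with matplotlib 3.10.9.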

Additional observations from a re-analysis of the deposited data

How the results depend on the processing

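Alternatives changed the overlap that counts as shared, the score cut, the joining of close peaks, the chromosomes, the dense blocks, the 48h Foxa2 list and the Hnf4a match, and an alternative without the shared regions at the top 48h Foxa2 sites was chosen after seeing the data. The number of shared regions was 117 with the upper 50% of each list by score and 94 with lists reduced to the shortest, in which fewer peaks enter. The median centre distance was 93.5 bp with at least 50% of the shorter peak, 76 bp with centres within 200 bp, which cuts the distance itself, and 188 bp with peaks within 500 bp joined. The median rank of 48h Foxa3 peaks was 38.1% with the upper 50% and 38.3% with the shortest lists. The iHep Hnf4a share was 29.1% with the upper 50%, 30.9% with the shortest lists and 12.8% with Hnf4a within 200 bp of the region centre. In the same order, regions of Foxa3 alone gave 10.2%, 11.1% and 5.26%, and regions of Foxa1 or Foxa2 alone 5.54%, 6.03% and 3.95%. The 48h Hnf4a share was 6.84% with the upper 50%, 8.51% with the shortest lists and 1.30% without dense blocks. Regions of Foxa3 alone gave 0.476%, 0.523% and 0.375% with these settings, and regions of Foxa1 or Foxa2 alone 0.573%, 0.603% and 0.498%. The cause of the other moves was not tested. Of 91 recomputed differences between classes of regions or peaks, 90 kept their sign. The exception was 48h Foxa3 at iHep Foxa2 without iHep Foxa1 minus the reverse, at -0.542 percentage points with the upper 50%. Not all 91 could change. The share of 48h Foxa3 peaks found again, 4 minus 0 partner lists, does not depend on which regions count as shared. It was therefore -55.7 percentage points again with at least 50% of the shorter peak, with the same stage and with centres within 200 bp. No paired analysis was possible because each group had 1 library and no test was run. Depth is unknown, so a site missing from a list may be below that list's detection limit.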
